A study of Saccharomyces cerevisiae S288C with 6 samples.

Results

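The genes carried by the mitochondrial genome of budding yeast gave 54 of the 7126 rows in the deposited expression table. They were taken by identifier, as the rows whose name begins with Q0, the 2 mitochondrial ribosomal RNA rows (15S_rRNA and 21S_rRNA), and the transfer RNA rows whose name ends in the mitochondrial mark Q. The samples were 3 libraries of EDS615, here called ltv1 deletion, with LTV1 deleted on both copies (genotype ltv1-/ltv1-), and 3 of EDS76, wild type (WT). Both are of the laboratory strain background S288C. Both strains were grown in rich medium (YPD) at 30 °C to mid-exponential phase. Ltv1 helps to assemble the small subunit of cytosolic ribosomes. The RNA component of mitochondrial RNase P, RPM1, is also encoded in the mitochondrion but carries another kind of identifier and is outside the 54 rows. It had 11 reads over the 6 libraries.

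Yeast mitochondrial DNA encodes a handful of proteins of the respiratory chain and the ATP synthase, together with the ribosomal and transfer RNAs needed to translate them inside the organelle. A single-subunit RNA polymerase, Rpo41, with its specificity factor Mtf1, reads the genome into long precursors that are then cut and spliced by proteins from nuclear genes. The COX1, COB and 21S rRNA genes contain introns, and many of these introns hold reading frames of their own, for maturases that help splicing or for endonucleases that spread the intron. Mitochondrial messenger RNAs of yeast carry no poly(A) tail, whereas the libraries were labelled as polyadenylated RNA. How RNA of these genes entered the libraries was not tested.

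Of the 54 rows, 44 matched a gene of the RefSeq annotation of build R64, the build named in the submitters' processing notes. The mitochondrial genome of that build is 85779 bases long and 82.9% A and T, against 61.7% in the nuclear chromosomes. A run of 7 or more A was found in 23.0% of its 300-base windows, counted on both strands, and in 13.6% of nuclear windows. Within the annotated RNAs of the 44 rows the longest run of A was between 2 and 10 bases. The 23 matched transfer RNAs had runs of at most 4, the 10 intron-encoded rows runs of 6 to 10, and the rows for complex subunits and the ribosomal protein Var1 runs of 3 to 9. The stretches below show a run of the greatest length in the row, with its flanks, for both highest rows, 21S_rRNA and AI1, for AI5_BETA, which has a run as long as that of 21S_rRNA, and for the low rows VAR1 and COB. AI1 and COB each have 2 runs of that length, of which 1 is shown. The run stands in capitals, and each stretch is RefSeq sequence of build R64, plus strand, 5′ to 3′.
21S_rRNA, chrM:60308-60377: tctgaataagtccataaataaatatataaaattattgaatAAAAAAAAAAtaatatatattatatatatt
AI1, chrM:14935-15001: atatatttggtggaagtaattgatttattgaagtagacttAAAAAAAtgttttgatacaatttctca
AI5_BETA, chrM:24562-24631: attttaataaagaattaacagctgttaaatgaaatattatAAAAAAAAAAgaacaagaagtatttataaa
VAR1, chrM:49458-49526: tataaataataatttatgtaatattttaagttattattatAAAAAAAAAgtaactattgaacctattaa
COB, chrM:43570-43633: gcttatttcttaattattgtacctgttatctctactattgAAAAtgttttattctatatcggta
Over the 44 rows the mean level had a Spearman correlation of 0.76 with the longest A run of 0.78 with the annotated length, of 0.81 with the number of A runs of 5 or more and of 0.43 with the percentage of A. Among the 20 rows longer than 200 bases all were lower, at 0.46 with the run, 0.47 with the length, 0.54 with the number of runs and 0.25 with the percentage of A. These are descriptions across rows of the same libraries. The transfer RNA rows are short and have short runs. Among longer rows the run did not simply follow the length. It was 10 in 21S_rRNA (3296 bases), 10 in AI5_BETA (1065 bases) and 6 in AI2 (2565 bases). Rows of COX1 and of COB share exons.

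**Figure D1:**
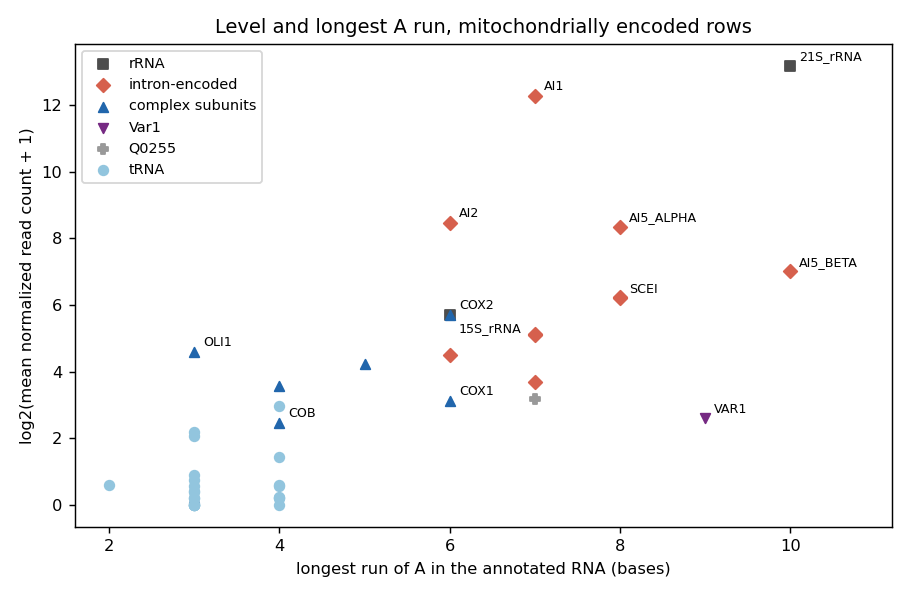
Mean normalized read count over the 6 libraries, as log2(value + 1), against the longest run of A in the annotated RNA of each of the 44 matched rows, by class of gene. The rows 21S_rRNA and AI1 stand highest, at runs of 10 and 7 bases, while VAR1 has a run of 9 bases and lies among the low rows.

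The values are read counts divided by a size factor for each library, called normalized read counts here. In libraries ltv1 deletion 1, 2 and 3 and wild type 1, 2 and 3 the whole reads behind them came to between 1002573 and 1248710. The LTV1 row did not follow the labels. It stood at 680, 3.22 and 6.397 normalized reads in libraries labelled ltv1 deletion 1, 2 and 3, against 29.2, 191 and 8.77 in those labelled wild type 1, 2 and 3. A library called ltv1 deletion or wild type below is one so labelled, directions go by the labels, and values without ltv1 deletion 1 and wild type 3, whose LTV1 levels are out of place, are given for each mitochondrial row where they turn the sign or move the value by over 1.5 times. Whether replicates came from separate cultures is not stated, and p-values therefore cover the spread between these libraries alone.

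Mitochondrially encoded rows took a similar share of the reads under both labels. They held 1.09% of all reads in ltv1 deletion 1 (95% exact binomial interval 1.07% to 1.11%), 1.45% in ltv1 deletion 2 (1.43% to 1.48%) and 1.47% in ltv1 deletion 3 (1.45% to 1.49%). In wild type 1 the share was 1.49% (1.47% to 1.51%), in wild type 2 it was 1.29% (1.27% to 1.31%) and in wild type 3 it was 1.41% (1.39% to 1.43%). The groups overlapped, and ltv1 deletion 1 was the lowest of the 6 libraries. The means were 1.339% ± 0.215 for ltv1 deletion and 1.40% ± 0.0985 for wild type (SD, n = 3 each), a log2 difference of -0.07 with a standard error of 0.15. An exact two-sided permutation test gave p = 0.8, where the smallest p that 3 libraries against 3 allow is 0.1. The log2 difference was 0.07 without ltv1 deletion 1 and 0.08 without both ltv1 deletion 1 and wild type 3. Intervals cover counting error only, and in these bulk samples fewer mitochondrial genomes and less RNA per genome cannot be told apart.

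These reads were concentrated on very few rows. Of 93489 reads on the 54 rows over all libraries, 59.7% lay on 21S_rRNA and 32.1% on AI1, the row of the first COX1 intron. The other 52 rows together held 8.16%. The 7 rows for subunits of the respiratory complexes and the ATP synthase held 0.740%, and the 24 transfer RNA rows 0.130%. In rank among all rows of the table, 21S_rRNA stood between the fourth and the ninth place in each of the libraries, and AI1 between place 18 and place 27.

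**Figure D2:**
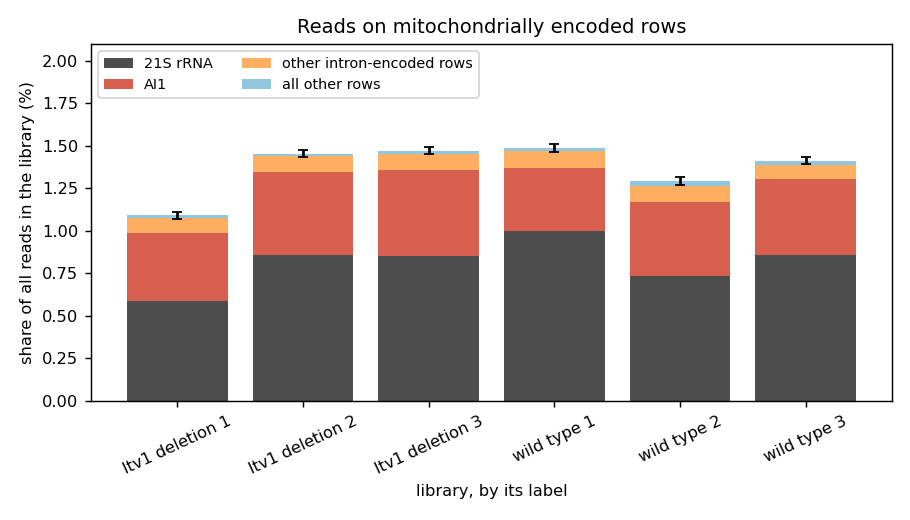
Share of all reads in each library (%) that lay on mitochondrially encoded rows, split into 21S rRNA, AI1, the other intron-encoded rows and all other rows; error bars are 95% exact binomial intervals of the whole share. The libraries labelled ltv1 deletion run from 1.09% to 1.47% and those labelled wild type from 1.29% to 1.49%.

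The ribosomal RNA rows are the RNA cores of the mitochondrial ribosome. The large-subunit row 21S_rRNA (chrM:58009-62447, 2 exons and 1 intron) stood at 6633, 9932 and 9358 normalized reads in ltv1 deletion 1, 2 and 3, against 12147, 7678 and 9925 in wild type 1, 2 and 3. The highest value was that of wild type 1, the lowest that of ltv1 deletion 1, and the groups overlapped. The log2 fold change was -0.20 with a 95% interval of -0.83 to 0.44. Leaving out ltv1 deletion 1 gave -0.0156, ltv1 deletion 2 gave -0.31, wild type 1 gave -0.0366 and wild type 2 gave -0.37. With ltv1 deletion 1 and wild type 3 both out the value of 21S_rRNA was -0.0025, and with quantile normalization it was 0.18. The small-subunit row 15S_rRNA (chrM:6546-8194, 1 exon) had 30.5, 33.3 and 44.8 in the deletion libraries and 77.7, 77.1 and 39.96 in the wild type libraries. Wild type 1 and 2 stood above all deletion libraries, while wild type 3 lay among them. Its log2 fold change of -0.78 (standard error 0.32) did not pass the threshold of an adjusted p of 0.05 (limma adjusted p = 0.131, unadjusted p = 0.0425). The mean level over all libraries was 9279 normalized reads for 21S_rRNA and 50.6 for 15S_rRNA.

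The subunits of complex IV, cytochrome c oxidase, are encoded by COX1, COX2 and COX3, which form its catalytic core. COX2 (chrM:73758-74513) was the steadiest of all tested mitochondrial rows. It had 46.3, 50.5 and 57.6 normalized reads in ltv1 deletion 1, 2 and 3 and 51.5, 55.2 and 45.8 in wild type 1, 2 and 3, with means of 51.45 ± 5.72 and 50.8 ± 4.73 (SD, n = 3 each). The log2 fold change of COX2 was 0.02 with a 95% interval of -0.48 to 0.51, and its residual SD of 0.15 was the lowest of the 21 mitochondrial rows tested. The row of COX1 (chrM:13818-26701, 8 exons) held 46 reads in all, with 7.36, 8.60 and 7.31 normalized reads in the deletion libraries against 10.7, 9.37 and 2.92 in wild type. The value of wild type 3 was the low one, and without it the log2 fold change of COX1 was -0.33 in place of 0.16 (-0.30 also without ltv1 deletion 1). COX3 (chrM:79213-80022) stood at 12.6, 9.67 and 5.48 in ltv1 deletion 1, 2 and 3, against 6.80, 14.6 and 16.6 in wild type 1, 2 and 3. These ranges overlapped as well, and the log2 fold change of COX3 was -0.39 (95% interval -1.33 to 0.54).

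COB, which encodes cytochrome b of complex III, had 27 reads in all and a mean under 5, so that it was not tested. Its values were 6.31, 2.15 and 4.57 in the deletion libraries and 2.92, 7.29 and 3.90 in wild type, and a floor of 3 reads is worth 2.74 to 3.22 normalized reads. Levels in both groups therefore lay near that floor.

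The ATP synthase rows encode subunits of its part in the inner membrane. OLI1 (chrM:46723-46953), for the subunit that forms the rotor ring, was the most variable tested mitochondrial row, with a residual SD of 1.58. It had 10.5, 22.6 and 13.7 normalized reads in ltv1 deletion 1, 2 and 3, against 2.92, 12.5 and 77.0 in wild type 1, 2 and 3. A single library, wild type 3, carried the highest value, and wild type 1 the lowest. The log2 fold change of OLI1 was -0.02 with a 95% interval of -2.24 to 2.21, and it was 1.13 without wild type 3. Leaving out wild type 1 gave -1.03, and leaving out both ltv1 deletion 1 and wild type 3 gave 1.36. On the recovered reads of all 6 libraries edgeR and DESeq2 both gave -0.98 for OLI1, with no call. ATP6 (chrM:28487-29266), for a subunit of the proton channel, had 10.5, 21.5 and 20.1 in the deletion libraries against 17.5, 19.8 and 16.6 in wild type, and its groups overlapped. The log2 fold change of ATP6 was -0.10, and it was 0.15 without ltv1 deletion 1 and wild type 3. ATP8 (chrM:27666-27812), transcribed together with COX1 and ATP6, had 1 read, in ltv1 deletion 3. VAR1 (chrM:48901-50097), which encodes a protein of the small mitochondrial ribosomal subunit, held 30 reads. It stood at 5.26, 3.22 and 1.83 in ltv1 deletion and at 4.86, 8.33 and 6.82 in wild type. With a log2 fold change of -0.84 (standard error 0.34) VAR1 had the lowest value of the tested mitochondrial rows, and it missed the threshold (limma adjusted p = 0.127). It rests on 5, 3 and 2 reads in ltv1 deletion 1, 2 and 3, those of ltv1 deletion 2 and 3 at or under the floor of 3 reads. On the recovered reads the unadjusted p of VAR1 was 0.140 in edgeR and 0.233 in DESeq2.

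The intron-encoded reading frames were the rows with most of the remaining signal. Each of AI1 to AI5_ALPHA is annotated as the first exons of COX1 read on into an intron, so these rows overlap COX1 and each other, and a read from a common exon could have been counted for any of them. Of the 2505 annotated bases of AI1 (chrM:13818-16322) 2336 belong to no other row, and of the 1605 bases of COX1 633 do. The 6 rows of COX1 introns held 35266 reads, against 46 for COX1 itself. The 3 rows of COB introns held 650, against 27 for COB. The mean level over all libraries was 5004 normalized reads for AI1, 352.8 for AI2, 326.6 for AI5_ALPHA and 7.71 for COX1.

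AI1, the row of a group II intron with a reverse transcriptase and maturase, had 4554, 5726 and 5615 normalized reads in ltv1 deletion 1, 2 and 3. In wild type 1, 2 and 3 it had 4441, 4505 and 5181. The means were 5298 ± 647 and 4709 ± 410 (SD, n = 3 each), the groups overlapped, and the log2 fold change was 0.17 with a 95% interval of -0.34 to 0.67. It was 0.27 without ltv1 deletion 1, 0.34 without ltv1 deletion 1 and wild type 3, and 0.0505 with quantile normalization. AI2 (chrM:13818-18830), the row of the second intron, which encodes a protein of the same kind, stood at 346, 372 and 435 in deletion libraries and at 293, 361 and 309 in wild type. Its log2 fold change was 0.26 (95% interval -0.25 to 0.76). AI5_ALPHA had a mean of 317.9 ± 16.1 in ltv1 deletion and 335.4 ± 56.4 in wild type (SD, n = 3 each), with a log2 fold change of -0.07 (-0.11 without ltv1 deletion 1 and wild type 3). AI5_BETA (chrM:24156-25255) had 90.4, 119 and 105.1 in ltv1 deletion 1, 2 and 3, against 246, 88.5 and 122 in wild type 1, 2 and 3. Here wild type 1 alone was high, and without it the log2 fold change was 0.01 in place of -0.41. AI3 and AI4 had lower means, of 30.0 and 25.5 in ltv1 deletion against 36.2 and 42.2 in wild type, and their log2 fold changes of -0.30 and -0.73 missed the threshold (limma adjusted p = 0.437 and 0.186).

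Among the COB introns, BI2 (chrM:36540-38579) was 1 of 2 among the 21 tested mitochondrial rows in which the groups did not overlap, against 41.6% of all tested rows and 20.0% with ltv1 deletion lower. It had 14.7, 19.3 and 17.4 normalized reads in ltv1 deletion 1, 2 and 3, against 29.2, 26.0 and 22.4 in wild type 1, 2 and 3. All deletion libraries were thus below all wild type libraries, over 129 reads in total. The log2 fold change of -0.57 (standard error 0.22) did not pass (limma adjusted p = 0.119, unadjusted p = 0.0365), and edgeR's unadjusted p was 0.0757. BI4, whose protein is the maturase for the fourth COB intron, had 53.6, 79.5 and 56.7 in the deletion libraries and 104, 82.3 and 75.05 in wild type, and ltv1 deletion 2 overlapped the wild type range. The log2 fold change of BI4 was -0.46 (adjusted p = 0.232). BI3 had 16.8, 12.9 and 7.31 in ltv1 deletion against 21.4, 7.29 and 5.85 in wild type, a log2 fold change of 0.23 that was -0.34 without ltv1 deletion 1 and wild type 3. SCEI (chrM:61022-61729), in the intron of the 21S rRNA gene, encodes the homing endonuclease I-SceI. It had 95.7, 65.6 and 78.6 in ltv1 deletion against 65.1, 97.9 and 36.1 in wild type, and the log2 fold change of 0.36 was -0.02 without wild type 3, and -0.15 when ltv1 deletion 1 was left out as well.

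A measure added after seeing the data set AI1 against 21S_rRNA within each library, where the scaling of the library has no part. The ratio of AI1 to 21S rRNA reads was 0.687, 0.576 and 0.600 in ltv1 deletion 1, 2 and 3, against 0.366, 0.587 and 0.522 in wild type 1, 2 and 3. The deletion libraries had the higher mean, but wild type 2 stood above ltv1 deletion 2. The log2 difference was 0.36 with a standard error of 0.22 (exact permutation p = 0.2, and 0.6 after Benjamini-Hochberg adjustment over 6 shares and ratios), and it was 0.16 without wild type 1.

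**Figure D3:**
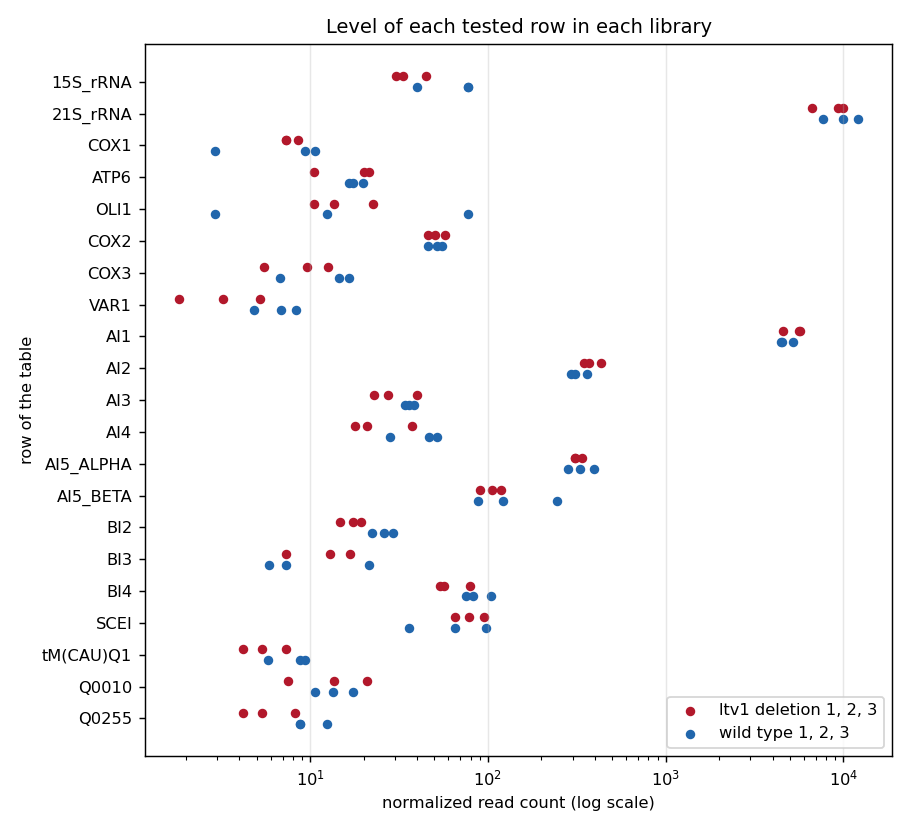
Normalized read count (log scale) of each of the 21 tested mitochondrial rows in each library, with the 3 libraries labelled ltv1 deletion (red, upper) above those labelled wild type (blue, lower); rows are ordered by role. The ranges of the labels overlap in all rows but BI2 and Q0255, and the levels run from 1.83 in VAR1 to 12147 in 21S_rRNA.

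Transfer RNAs were barely seen. Of 24 rows 18 had at least 1 read, and only a methionine transfer RNA, tM(CAU)Q1, reached the mean of 5 needed for a test. It had 4.20, 5.37 and 7.31 normalized reads in ltv1 deletion 1, 2 and 3, against 5.83, 9.37 and 8.77 in wild type 1, 2 and 3, with a log2 fold change of -0.44 (limma adjusted p = 0.287) that was -0.21 without ltv1 deletion 1 and wild type 3. All 24 rows together had 15, 10 and 15 reads in the deletion libraries and 23, 39 and 20 reads in the wild type libraries. These sums did not overlap. As shares of all reads they averaged 0.00119% ± 0.000238 in ltv1 deletion and 0.00247% ± 0.00123 in wild type (SD, n = 3 each), and the exact two-sided permutation p of 0.1 is the smallest that this design allows (0.6 adjusted over the 6 measures).

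Of the 10 other Q0 identifiers 2 were tested, Q0010 and Q0255. Q0010 had 21.02, 7.52 and 13.7 in ltv1 deletion against 10.7, 13.5 and 17.5 in wild type, a log2 fold change of -0.06 that was 0.30 without ltv1 deletion 2, 0.11 without wild type 3 and -0.22 without both ltv1 deletion 1 and wild type 3. Q0255 (chrM:74495-75984), whose annotated start overlaps the end of COX2, had 4.20, 5.37 and 8.22 in the deletion libraries, against 8.75, 12.5 and 8.77 in wild type. The groups stood apart, though ltv1 deletion 3 lay close under wild type 1 and 3, and the log2 fold change of -0.69 missed the threshold (limma adjusted p = 0.133). Of the 33 rows not tested, 9 had no read in any library, 20 had 1 to 5 reads over all libraries, and 4 had more, with at most 27. Differences in these rows were not detectable at this depth.

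Across the whole comparison no mitochondrially encoded row was called. Of 21 tested rows limma called 0 at an adjusted p of 0.05, where it called 15.9% of all 5663 tested rows, 8.88% as higher and 6.98% as lower in ltv1 deletion. At an unadjusted p under 0.05 there were 4 (15S_rRNA, BI2, VAR1 and Q0255, all lower in ltv1 deletion), against 34.7% of all tested rows in either direction and 16.9% lower. On the recovered reads edgeR called 0 (19.8% of all rows) and DESeq2 called 0 (21.3%), each with 1 row, 15S_rRNA, at an unadjusted p under 0.05 (35.5% of all rows in edgeR and 32.7% in DESeq2). The ranges of the labels stood apart in 2 of the 21, both lower in ltv1 deletion, against 41.6% of all tested rows, 20.0% lower and 21.6% higher. Without both ltv1 deletion 1 and wild type 3 limma again called 0 of the 21, where it called 0.283% of all rows, and 2 were at an unadjusted p under 0.05 (25.5% of all rows). The median log2 fold change of the tested mitochondrial rows was -0.20, beside -0.02 over all tested rows. The log2 fold change was below 0 in 15 of the 21 rows (71.4%), beside 50.8% of all tested rows. It was so in 13 to 17 of them under the other settings that test these 21 rows, which reuse the same libraries. The median size of the change, either way, was 0.30, beside 0.50 over all tested rows. The residual SD had a median of 0.39, beside 0.35 over all rows. By limma no tested mitochondrial row differed by a log2 fold change over 1 in size, while 1177 of all 5663 tested rows did. The 95% intervals still allowed changes of that size in 13 of the 21 rows. The log2(value + 1) scale understates changes of low rows. On the recovered reads OLI1 came close to that size, at -0.98 in both edgeR and DESeq2, as did VAR1, at -0.94 and -0.97. In the authors' deposited table, of the 54 rows, 17 were classed as insignificant, 31 as low count, 5 as zero count and 1 (BI3) as an outlier, and the lowest adjusted p among them was 1. That table classed 86 of its 7126 rows, 1.21%, as significant. Its means are not those of these 6 libraries (7965 against 9279 for 21S_rRNA), so its calls and those of limma are not a like comparison.

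**Figure D4:**
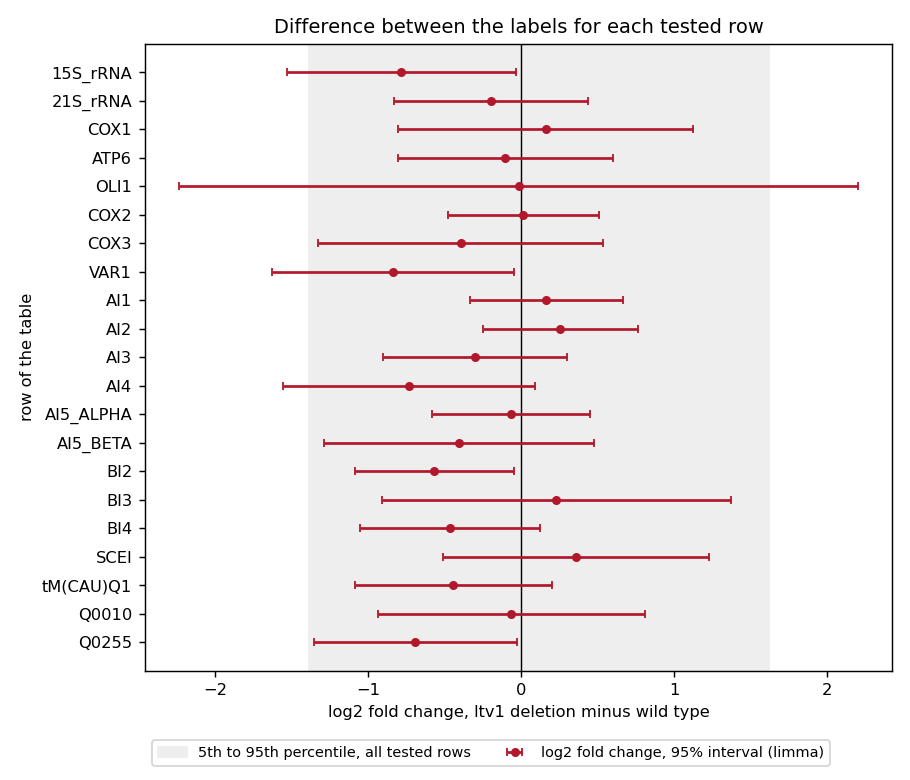
Difference in mean log2(value + 1), ltv1 deletion minus wild type, with its 95% limma interval, for the 21 tested mitochondrial rows; the grey band spans the 5th to the 95th percentile of all 5663 tested rows. The values lie between -0.84 (VAR1) and 0.36 (SCEI), and the interval of OLI1, from -2.24 to 2.21, is the widest.

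Nuclear genes whose products make, process or translate these RNAs were described by lists, whose counts stand against 15.9% of all tested rows called by limma, 8.88% higher and 6.98% lower. Of 15 genes for mitochondrial transcription, RNA processing and decay 1 rose and 1 fell, and the list's median log2 fold change was -0.01. NUC1, the mitochondrial nuclease, rose to 130, 110 and 72.2 normalized reads in ltv1 deletion 1, 2 and 3, against 15.5, 43.7 and 28.3 in wild type 1, 2 and 3 (log2 fold change 1.87, limma adjusted p = 0.0233). RPM2, the protein subunit of mitochondrial RNase P, fell to 83.04, 82.8 and 117.9, against 197.3, 171.8 and 254.4 (log2 fold change -1.13, adjusted p = 0.0279). The ranges of the labels stood apart in both genes, as they did in 41.6% of all tested rows. Of 16 translational activators of mitochondrial messenger RNAs 1 fell and 0 rose, with a median of -0.33. This was MSS51, the activator of COX1 translation, at 18.9, 25.8 and 21.9 in ltv1 deletion against 61.2, 55.2 and 65.3 in wild type (log2 fold change -1.41, adjusted p = 0.0140). Its values within each label were close together. The COX1 row, with 46 reads in all, had a log2 fold change of 0.16 (standard error 0.41), which was -0.33 without wild type 3. These are RNA levels, and whether translation of COX1 differed was not tested. Of 8 splicing factors for mitochondrial introns limma called 0, with 1 at an unadjusted p under 0.05 (34.7% of all tested rows) and a median of -0.22, and of 7 mitochondrial translation factors it called 0, with 1 and a median of -0.11. EdgeR called 0 in both. Of 10 genes of mitochondrial DNA maintenance 1 rose and 1 fell, with a median of 0.08. ILV5, an enzyme of branched-chain amino acid synthesis that also binds mitochondrial DNA, rose to 777, 590 and 746 in ltv1 deletion against 106, 251 and 197 in wild type (adjusted p = 0.0163). RIM1, the single-stranded DNA binding protein, fell to 52.6, 65.6 and 63.05, against 239, 109 and 125 (log2 fold change -1.29, adjusted p = 0.0360).

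Most calls among the nuclear partners of the mitochondrially encoded subunits lay in complex IV, and no test compared the complexes. Of 10 nuclear genes for complex IV 5 fell (COX12, COX8, COX6, COX13 and COX5B) and 0 rose, against 6.98% of all tested rows called lower, with a median log2 fold change of -1.19. COX8 lay near the floor of 3 reads in ltv1 deletion, at 5.26, 4.30 and 5.48, against 37.9, 13.5 and 25.3 in wild type. COX5B stood at 64.1, 140.8 and 83.2 in ltv1 deletion 1, 2 and 3, against 362.5, 163.5 and 320.7 in wild type 1, 2 and 3 (log2 fold change -1.54, limma adjusted p = 0.0400), and its alternative form COX5A had a log2 fold change of 0.10 (adjusted p = 0.885). Of 14 nuclear genes for the ATP synthase 1 fell, ATP18 (log2 fold change -1.04, adjusted p = 0.0383), and 0 rose, with a median of -0.52. Of 9 for complex III limma called 0 (1 at an unadjusted p under 0.05, and 0 by edgeR), with a median of -0.21. Over all lists there were 5 calls among the genes of expression and DNA maintenance and 6 among the subunits. These stood beside 898 calls over all tested rows. Dropping ltv1 deletion 1 left 1 and 0 (180 over all tested rows), ltv1 deletion 2 left 2 and 2 (190), and ltv1 deletion 3 left 0 and 0 (24). Dropping wild type 1 left 4 and 4 (584), wild type 2 gave 6 and 8 (977), and wild type 3 left 2 and 2 (548). With ltv1 deletion 1 and wild type 3 both out there were 0 and 0 (16). Where the lists lost calls, the whole table lost calls too. A difference between the nuclear and the mitochondrial subunits of one complex was not tested either.

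**Figure D5:**
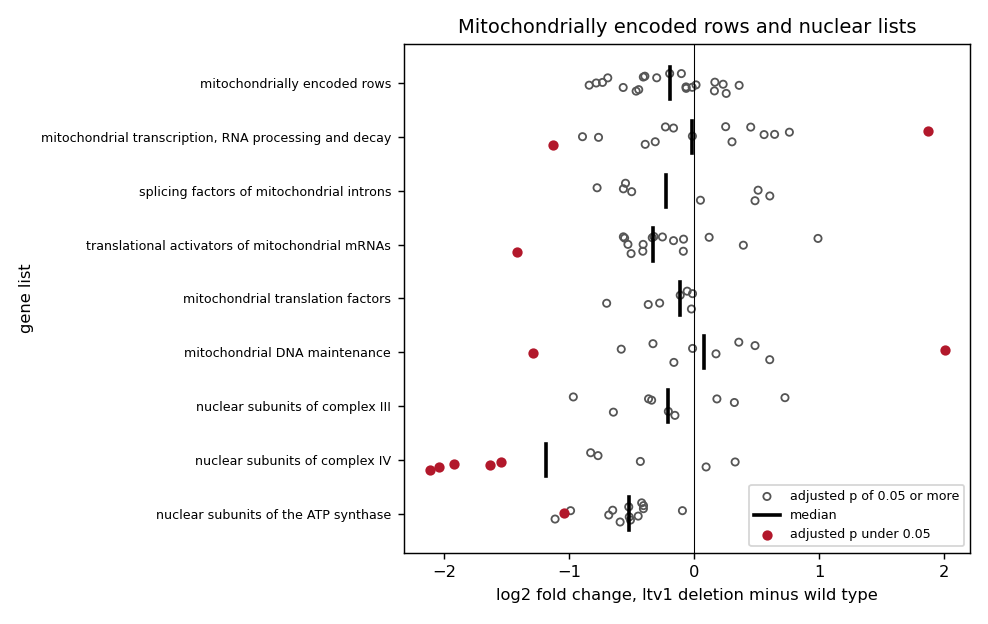
Log2 fold change, ltv1 deletion minus wild type, of the 21 tested mitochondrial rows and of the members of 8 lists of nuclear genes; filled points passed a limma adjusted p of 0.05, open points did not, and black bars are medians. The mitochondrial rows have no filled point, and the complex IV list has 5, all below 0.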

How the data were processed

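Sequencing of 3' tags from polyadenylated RNA gave 6 libraries. Genome build R64 and, as tools, STAR, Salmon, FastQC, Trim Galore, R 4.1.3 and DESeq2 1.34.0 are named per the submitters' processing notes. Strand, settings and any use of molecular identifiers were not given in the sources read. The deposited signal per row and library is a read count divided by a size factor, since every library has a step of which 100% of its values are whole multiples, within 0.01. The authors' deposited table also holds their log2 fold change and p-values.

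Here limma 3.58.1 in R 4.3.3 was fitted to log2(value + 1) over all rows with a mean of at least 5 (5663 of 7126), with Benjamini-Hochberg adjustment over these rows and a threshold of 0.05. Each fold change is the mean of ltv1 deletion less that of wild type, and the scale understates changes of low rows. EdgeR 4.0.16 and DESeq2 1.42.0 were run on the recovered reads. Shares were compared by exact permutation. The procedure was tested on simulated data. Every label was right in the simulation, so it does not cover libraries whose LTV1 levels are out of place. The rows and lists were chosen with earlier results of these data known. Named were LTV1, every mitochondrial row with a mean of at least 5, and from each nuclear list up to 4 called members in its main direction and up to 2 against it. COX13, COX5A, COB, ATP8 and RPM1 were added after their values were seen.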

Additional observations from a re-analysis of the deposited data

Results flagged for a closer look

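The mean level of BI3 in the authors' deposited table, 22.04 normalized reads, was above its value in each of the 6 libraries, of which the highest was 21.4 in wild type 1. A mean above all 6 values is not the mean of these values, and what it was taken over was not tested. The same holds for 4 mitochondrial rows without a read in these libraries, whose deposited mean is not 0. Deposited means also differed from those over these libraries for 21S_rRNA (7965 against 9279), AI1 (4215 against 5004) and 15S_rRNA (59.6 against 50.6).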

How the results depend on the processing

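Under the alternatives, calls over the whole table ranged from 16 to 1207. Where these were few, a count of 0 among the mitochondrial rows says little. The count of mitochondrial rows called was 0 under each alternative. Their median log2 fold change was -0.30 with no filter, -0.10 with a mean of at least 10 and -0.27 with DESeq2, -0.29 without ltv1 deletion 1 and wild type 3, and between -0.31 and -0.13 with 1 library left out. The log2 difference of the mitochondrial share turned to 0.12 without both ribosomal RNAs and 0.11 without the highest row, and ran from -0.15 to 0.0781 with libraries left out. The AI1 to 21S rRNA difference ran from 0.16 to 0.50 in these fits.

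Signs turned for single uncalled rows. With quantile normalization 21S_rRNA was at 0.18 and OLI1 at 0.0177, which was at 0.0231 with a pseudocount of 0.5. Q0010 was at 0.0256 with edgeR and 0.0190 with DESeq2, and LTV1 at 1.59 with both. With libraries left out, the ranges were -0.39 to 0.30 for Q0010, -0.33 to 0.45 for COX1, -0.18 to 0.0586 for AI5_ALPHA, -0.73 to 0.0056 for AI5_BETA, -0.28 to 0.21 for ATP6, -0.34 to 0.76 for BI3, -1.03 to 1.36 for OLI1, -0.15 to 0.69 for SCEI, -0.0672 to 0.0877 for COX2 and -3.77 to 0.89 for LTV1.

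The replicate number as a block left 430 calls over the table (898 without it), 2 in the expression lists and 2 among the nuclear subunits, against 5 and 6. Same-numbered libraries did not deviate together (correlations of -0.20 to 0.07), while ltv1 deletion 1 and wild type 2 had a correlation of 0.28. With 3 libraries per label, and LTV1 levels out of place, this cannot settle whether the numbers mark a pairing. With libraries left out the calls over the table ranged from 16 to 977, those in the expression lists from 0 to 6 and those among the subunits from 0 to 8, and the last was 3 with no filter.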
